A study of Fukomys damarensis and Heterocephalus glaber and Cavia porcellus with 28 samples.

Results

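The genes described here encode lipases, their main circulating inhibitor and the enzymes that empty lipid droplets: Lpl, Lipc, Lipg, Pla1a and Angptl4, and Pnpla2, Pnpla3, Lipe and Mgll. They are 9 of the 13928 genes in each of a heart and a liver table, and were chosen from earlier results of these data by gene family. Pla1a in heart and Mgll in liver were picked for the very contrast shown here, mole-rats against outgroups, so their values in those tissues are given as a description, with no test. All 9 genes were measured in both tissues. After a filter on low values 8 of them entered the heart fit, where Lipc was too low, and 9 entered the liver fit.

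The study measured RNA by sequencing in heart and liver of 4 rodent species, in 28 libraries from 18 animals, of which 10 gave both tissues. Naked mole-rats aged 13 to 17 months gave 3 hearts and 4 livers, and Damaraland mole-rats labelled 36 to 48 months gave 5 hearts and 5 livers. Guinea pigs aged 2.3 months gave 3 hearts and 3 livers, and mice aged 2 months gave 3 hearts and 2 livers. Guinea pig and mouse are called the outgroups here. All animals were labelled male except 1 Damaraland female, the source of liver replicate 4, and 1 Damaraland animal carries different ages in its heart and liver labels. The labels used here give no treatment and no altered genotype. Species and age cannot be told apart in this design.

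Triglyceride reaches tissues by a pair of routes. In capillaries, lipoprotein lipase (Lpl) and its relatives hepatic lipase (Lipc) and endothelial lipase (Lipg) act on lipoproteins passing in the blood, and the secreted protein Angptl4 inhibits Lpl. Inside cells, fat held in droplets is broken down stepwise by adipose triglyceride lipase (Pnpla2), hormone-sensitive lipase (Lipe) and monoacylglycerol lipase (Mgll), which also degrades the endocannabinoid 2-arachidonoylglycerol. Pnpla3 is a droplet-bound relative of Pnpla2 studied for its link to fatty liver, and Pla1a is a secreted phospholipase that makes lysophosphatidylserine.

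Values per library are given as scaled reads, the reads assigned to a gene divided by the library's size factor, both recovered from the deposited table. Differences and tests use the deposited log2-like values, on which a 2-fold change from 100 scaled reads moves the value by 0.68 in heart and 0.80 in liver, and less at lower levels. A difference was called when limma's Benjamini-Hochberg adjusted p over all genes tested was under 0.05 and its size was at least 1. Reads per library ranged from 4089633, in naked mole-rat heart replicate 3, to 26985779 for the hearts; the livers had 11220505 to 21467939. No correction for gene length between species is recorded, so a difference between species can hold a share set by the length of the annotated transcript; levels are not compared between genes. The p-values measure the spread between animals. In whole tissue, a change in the number of cells of a type and a change in RNA per cell cannot be told apart.

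Cell type markers matched the tissue labels. Cardiomyocyte markers summed to 587600 to 2416000 scaled reads over the heart libraries and to at most 3569 in any liver. Hepatocyte markers summed to between 354 and 33010 scaled reads in heart, against at least 935900 in every liver. Of the 8 hepatocyte markers 6 were measured, and their sum in heart was 11870 to 33010 in naked mole-rat, 1867 to 5343 in Damaraland mole-rat, 459.6 to 2081 in guinea pig and 354.4 to 1218 in mouse.

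In heart, Lpl was low in both mole-rats and high in both outgroups. Its scaled reads were 8854, 7264 and 5512 in the naked mole-rats and 6514, 6859, 7916, 3623 and 4547 in the Damaraland mole-rats. They were 39524, 39444 and 38963 in the guinea pigs and 90721, 85296 and 100390 in the mice. No mole-rat heart reached the lowest outgroup heart, and the ranges of the mole-rat species overlapped each other.

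The guinea pig mean for Lpl was 5.45 times that of naked mole-rat (difference -2.46, SE 0.26; limma adjusted p 4.52e-07) and 6.67 times that of Damaraland mole-rat (-2.78, SE 0.23; adjusted p 2.49e-08). The mouse mean was 12.8 times that of naked mole-rat (-3.68, SE 0.26; limma adjusted p 2.89e-09) and 15.6 times that of Damaraland mole-rat (-4.00, SE 0.23; adjusted p 2.43e-10). The outgroups also differed from each other, with mouse above guinea pig by 2.34 times (guinea pig minus mouse -1.22, SE 0.26; limma adjusted p 0.000629). The mole-rats did not differ past the threshold: naked minus Damaraland was 0.32, with a 95% confidence interval of -0.17 to 0.80 and a limma adjusted p of 0.244. Lpl was the 1 gene of the 7 tested members that was called with the same sign in all 4 heart comparisons that set a mole-rat beside an outgroup, a pattern found in 4.68% of all genes tested there.

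**Figure D1:**
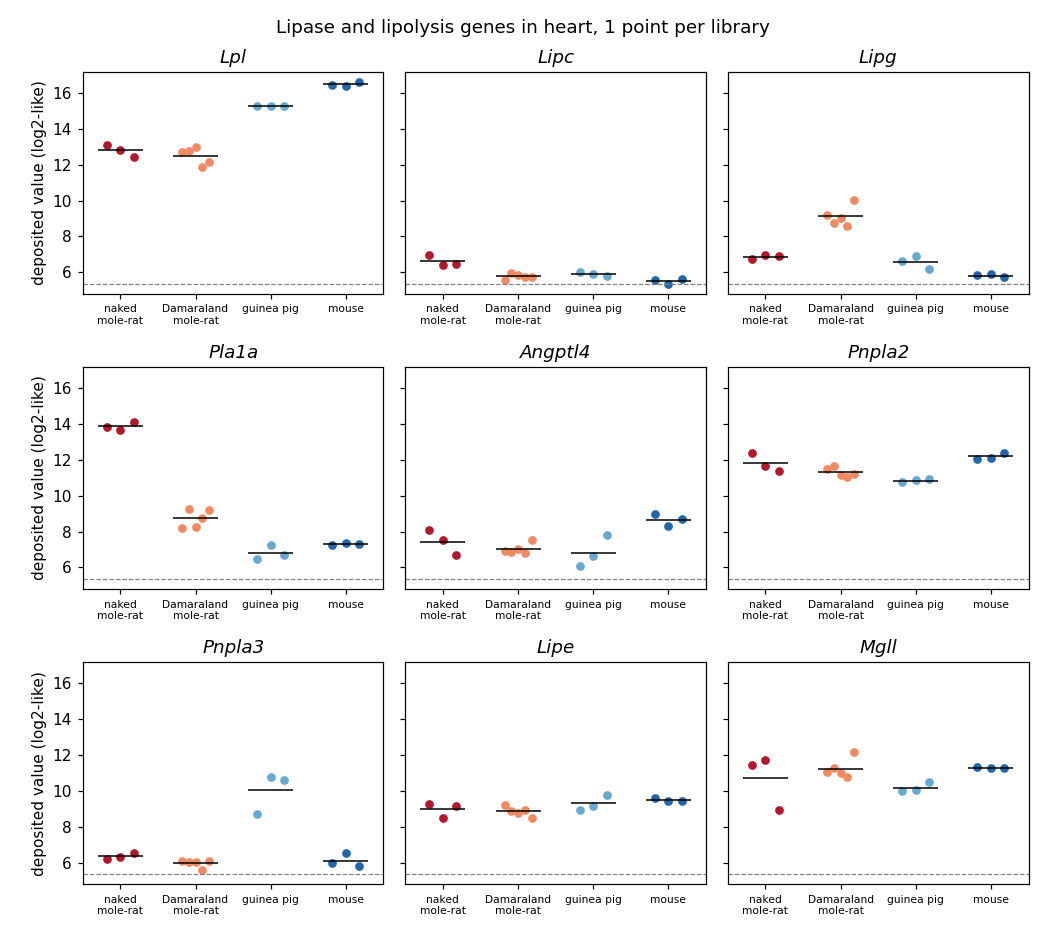
Deposited log2-like value (vertical axis) of each of the 9 genes in the 14 heart libraries, 1 point per library, grouped by species; black bars are species means and the dashed line is the value of 0 reads. Lpl is lower in every mole-rat heart than in every outgroup heart, Pla1a is highest in the 3 naked mole-rats, Lipg in the 5 Damaraland mole-rats and Pnpla3 in the 3 guinea pigs.

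In liver, Lpl was low in 3 species and high in mouse. The livers of naked mole-rat held 34.7 to 85.7 scaled reads, those of Damaraland mole-rat 19.1 to 69.9 and those of guinea pig 41.4 to 86.0, all overlapping. The mouse livers held 775 and 570. Mouse exceeded naked mole-rat (difference -3.08, SE 0.30; limma adjusted p 9.34e-08), was 17.5 times Damaraland mole-rat (-3.34, SE 0.28; adjusted p 2.3e-08) and was 10.5 times guinea pig (-2.85, SE 0.31; adjusted p 5.94e-07). Guinea pig Lpl thus lay above the mole-rats in heart and overlapped them in liver.

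Lipc, the hepatic lipase, was the most even of the secreted lipases across the livers. Its scaled reads were 2204, 4412, 3372 and 3196 in naked mole-rat and 1864, 3320, 2649, 4202 and 2500 in Damaraland mole-rat. They were 3509, 2003 and 3749 in guinea pig and 2358 and 2972 in mouse. Every pair of species overlapped. Ratios between species means ran from 1.06 to 1.24, and none of the 6 differences was called; the largest, naked mole-rat minus mouse, was 0.27 with a 95% confidence interval of -0.39 to 0.93 (limma adjusted p 0.467).

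In heart, Lipc was scarce and not tested. Naked mole-rat hearts held 55.0, 23.3 and 25.9 scaled reads (7 to 65 reads), above the 0.87 to 7.07 of Damaraland mole-rat, the 3.94 to 7.80 of guinea pig and the 0 to 1.60 of mouse, where 0 to 2 reads were counted. Hepatocyte markers were likewise highest in the naked mole-rat hearts, as given above. In naked mole-rat the mean of Lipc in heart, as RPM (a gene's share of the library's reads), was 1.09% of its mean in liver; the same share was 1.09% for albumin (Alb), 1.31% for Fgb and 1.53% for Cps1. The part of liver-type RNA in the heart value of Lipc was not tested.

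Lipg, the endothelial lipase, was highest in Damaraland mole-rat hearts. Scaled reads there were 502, 345, 447, 305 and 980. The other hearts held 40.6, 54.5 and 51.9 in naked mole-rat, 33.8, 51.4 and 12.6 in guinea pig and 4.65, 5.45 and 2.41 in mouse. The Damaraland hearts overlapped no other species, and the lowest of them held several times the highest of the rest.

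The Damaraland mean for Lipg in heart was 10.5 times that of naked mole-rat (naked minus Damaraland -2.25, SE 0.26; limma adjusted p 1.17e-06), 15.8 times that of guinea pig (2.55, SE 0.26; adjusted p 2.41e-07) and 124 times that of mouse (3.30, SE 0.26; adjusted p 9.6e-09). Naked mole-rat was 11.8 times mouse (1.05, SE 0.29; limma adjusted p 0.00421), a call that lay just over the size threshold and was 0.999 without mouse heart replicate 3. The summed level of 8 endothelial markers in heart was 11650 to 18480 scaled reads in Damaraland mole-rat, against 16920 to 19910 in naked mole-rat, 15290 to 19610 in guinea pig and 12230 to 15740 in mouse.

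In liver the order of Lipg was different: Damaraland mole-rat and mouse were high, naked mole-rat and guinea pig low. Damaraland livers held 1077, 130, 736, 127 and 68.0 scaled reads, and mouse livers 436.5 and 566. Naked mole-rat livers held 17.9, 24.9, 19.5 and 12.4, and guinea pig livers 51.1, 14.0 and 4.75. Every Damaraland and mouse liver exceeded every liver of the other 2 species, while the 5 Damaraland livers were spread widely and enclosed the mouse values.

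Damaraland mole-rat exceeded naked mole-rat for Lipg by 22.9 times (naked minus Damaraland -2.59, SE 0.54; limma adjusted p 0.000436) and guinea pig by 18.4 times (2.60, SE 0.59; adjusted p 0.000937). Mouse exceeded naked mole-rat by 26.9 times (-3.43, SE 0.70; limma adjusted p 0.000383) and guinea pig by 21.5 times (-3.43, SE 0.74; adjusted p 0.000711). Damaraland minus mouse was -0.83 (SE 0.68; limma adjusted p 0.291).

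Pla1a, the phosphatidylserine-specific phospholipase, reached its highest level in naked mole-rat heart. The 3 hearts held 14615, 12718 and 17454 scaled reads. Damaraland hearts held 219, 538, 229, 359 and 506, guinea pig hearts 24.7, 82.0 and 37.1, and mouse hearts 79.0, 94.1 and 88.2. Each mole-rat species lay above both outgroups without overlap, the mole-rats did not overlap each other, and guinea pig and mouse overlapped.

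By mean scaled reads, Pla1a in naked mole-rat heart was 40.3 times Damaraland mole-rat, 311 times guinea pig and 171 times mouse, with differences of 5.12, 7.06 and 6.55 on the deposited scale. Damaraland mole-rat was 7.73 times guinea pig and 4.25 times mouse, with differences of 1.94 and 1.43. These values chose the gene and carry no test. Hepatocyte markers were also highest in naked mole-rat heart. In that species the mean RPM of Pla1a in heart was 394% of that in liver, and the same share was 1.09% to 1.53% for Alb, Fgb and Cps1. The part of liver-type RNA in the heart value of Pla1a was not tested.

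In liver, where Pla1a was not picked by its values, both mole-rats again exceeded both outgroups. Naked mole-rat livers held 4323, 4527, 2453 and 4411 scaled reads and Damaraland livers 1579, 1821, 1495, 2523 and 2275. Guinea pig livers held 220, 107 and 214, and mouse livers 577 and 653. The lowest mole-rat liver for Pla1a was above the highest outgroup liver, the mole-rats overlapped each other only through naked replicate 3, and guinea pig lay below mouse.

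Naked mole-rat exceeded guinea pig for Pla1a in liver by 21.8 times (difference 4.20, SE 0.25; limma adjusted p 1.86e-10) and mouse by 6.39 times (2.56, SE 0.28; adjusted p 5.25e-07). Damaraland mole-rat exceeded them by 10.7 times (3.20, SE 0.24; limma adjusted p 3.47e-09) and 3.15 times (1.57, SE 0.27; adjusted p 8.7e-05). Mouse was 3.41 times guinea pig (-1.63, SE 0.30; limma adjusted p 0.00017). Naked minus Damaraland was 0.99 (SE 0.22; limma adjusted p 0.000734), just under the size threshold; it was 1.20 without naked mole-rat liver replicate 3, 1.09 without Damaraland replicate 4 and 1.06 without Damaraland replicate 5, each of which passes it. The earlier heart result for the same gene was known, and some animals gave both tissues, so the liver is not independent support for it.

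**Figure D2:**
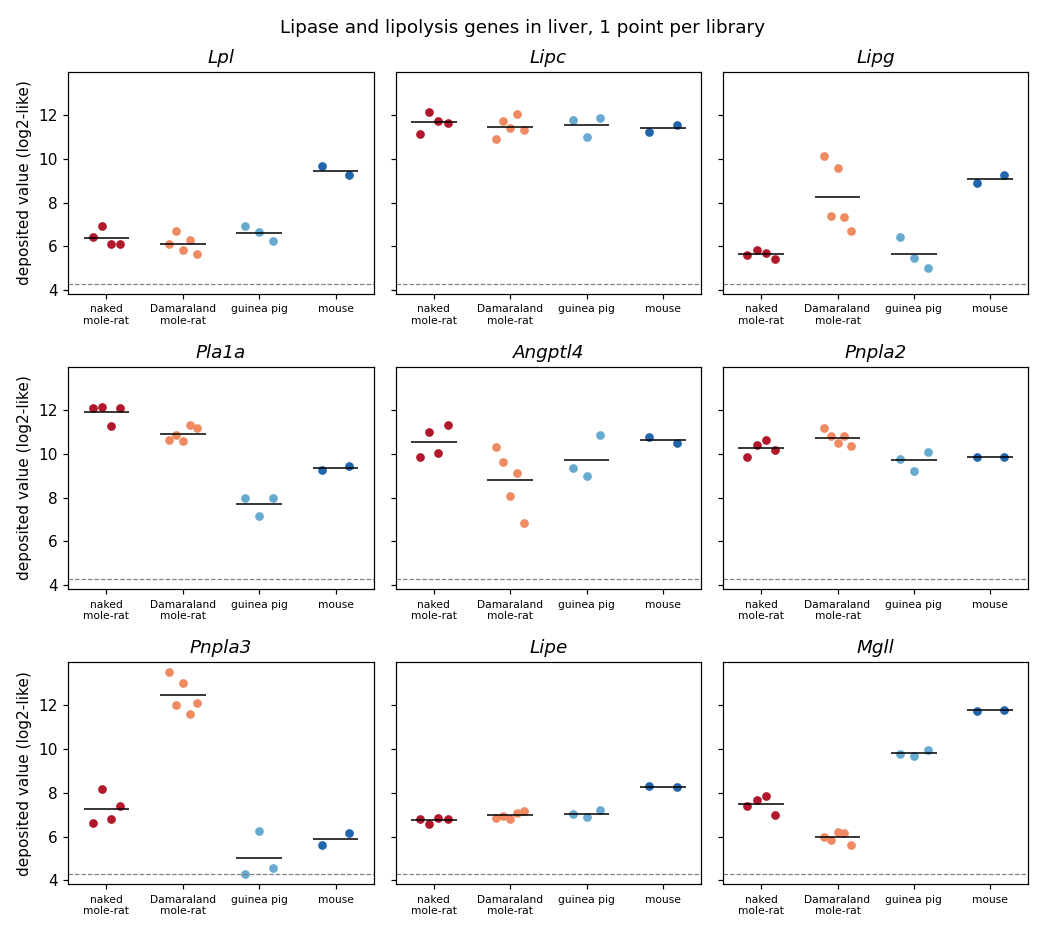
Deposited log2-like value (vertical axis) of each of the 9 genes in the 14 liver libraries, 1 point per library, grouped by species; black bars are species means and the dashed line is the value of 0 reads. Pnpla3 is highest in the 5 Damaraland mole-rats, Pla1a is higher in every mole-rat than in every outgroup liver, Mgll is lower in every mole-rat, and Lipc overlaps between all pairs of species.

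Angptl4, the Lpl inhibitor and a known target of the fatty acid receptors of the PPAR family, varied widely within species. In heart, mouse was highest at 427, 239 and 333 scaled reads. Naked mole-rat hearts held 192, 114 and 37.0, Damaraland hearts 44.6 to 112, and guinea pig hearts 9.75, 33.0 and 147. No heart outside mouse reached the lowest mouse heart, and the other 3 species overlapped.

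Mouse heart exceeded naked mole-rat for Angptl4 by 2.91 times (difference -1.22, SE 0.38; limma adjusted p 0.00923), Damaraland mole-rat by 5.24 times (-1.63, SE 0.34; adjusted p 0.000431) and guinea pig by 5.27 times (-1.83, SE 0.38; adjusted p 0.000507). The first of these was lost without naked mole-rat heart replicate 3, the shallowest library (-0.85; limma adjusted p 0.0583). In liver Angptl4 was 894 to 2504 scaled reads in naked mole-rat, 79.7 to 1221 in Damaraland mole-rat, 473 to 1841 in guinea pig and 1426 to 1692 in mouse. Naked mole-rat exceeded Damaraland mole-rat by 2.86 times (1.76, SE 0.55; limma adjusted p 0.00912), although their ranges overlapped. Damaraland minus mouse was -1.83 (SE 0.68; limma adjusted p 0.0268), and -1.66 with an adjusted p of 0.0521 without Damaraland liver replicate 3.

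Pnpla2, which starts droplet breakdown, differed little between species. In heart it was lowest in guinea pig, at 1632 to 1883 scaled reads, and reached 2545 to 5277 in naked mole-rat, 2017 to 3104 in Damaraland mole-rat and 4171 to 5329 in mouse. Mouse was 2.62 times guinea pig (difference -1.34, SE 0.23; limma adjusted p 0.000105), the only call for the gene in heart. Naked mole-rat was 2.07 times guinea pig, a difference of 0.95 (SE 0.23; limma adjusted p 0.00198) that missed the size threshold and passed it without naked replicate 2 (1.03), naked replicate 3 (1.18) or guinea pig replicate 3.

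In liver Pnpla2 was highest in Damaraland mole-rat, at 1290 to 2329 scaled reads, against 885 to 1553 in naked mole-rat, 568 to 1044 in guinea pig and 890 and 898 in mouse. Damaraland mole-rat was 2.09 times guinea pig (difference 1.04, SE 0.22; limma adjusted p 0.000473). That difference fell under the size threshold without Damaraland replicate 1 (0.93) or guinea pig replicate 2 (0.81). Damaraland mole-rat was 1.92 times mouse, a difference of 0.88 (SE 0.25; limma adjusted p 0.00545), also under the size threshold.

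Pnpla3 was highest in different species in the 2 tissues. In heart guinea pig was highest, at 348, 1678 and 1451 scaled reads. Naked mole-rat hearts held 13.5, 18.8 and 29.6. Damaraland hearts held 10.5, 8.84, 9.67, 0.95 and 10.9 and mouse hearts 7.96, 27.2 and 4.01. The lowest guinea pig heart lay far above every other heart, and the other 3 species were all low.

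By mean scaled reads, Pnpla3 in guinea pig heart was 56.1 times naked mole-rat heart, 142 times Damaraland mole-rat heart and 88.7 times mouse heart. On the deposited scale naked mole-rat minus guinea pig was -3.68 (SE 0.37), Damaraland mole-rat minus guinea pig -4.06 (SE 0.33) and guinea pig minus mouse 3.93 (SE 0.37). The gene passed the filter on low values in heart only through guinea pig, the means of the other 3 species lying below its bound, so these differences are given as a description with no p-value.

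In liver Pnpla3 was highest in Damaraland mole-rat. Its scaled reads there were 11680, 4115, 8275, 3113 and 4420. Naked mole-rat livers held 64.6, 250, 74.5 and 132, mouse livers 17.7 and 37.0, and guinea pig livers 0, 41.3 and 0.68. The lowest Damaraland liver lay far above the highest liver of any other species, and 50 of the 51 guinea pig reads came from replicate 2.

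Damaraland mole-rat liver exceeded naked mole-rat liver for Pnpla3 by 48.5 times (naked minus Damaraland -5.21, SE 0.42; limma adjusted p 8.68e-09), guinea pig liver by 451 times (7.43, SE 0.46; adjusted p 3.21e-10) and mouse liver by 231 times (6.58, SE 0.53; adjusted p 1.01e-08). Naked mole-rat exceeded guinea pig by 9.31 times (2.22, SE 0.48; limma adjusted p 0.000621). Naked minus mouse was 1.37 (SE 0.55; limma adjusted p 0.0362), a call lost without naked mole-rat liver replicate 2 (1.06; adjusted p 0.0997) or replicate 4 (1.32; adjusted p 0.067).

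Within the Damaraland livers, Pnpla3 was highest in replicates 1 and 3, which were also the highest for Lipg, as given above, and for Plin1, which encodes the droplet coat protein perilipin 1 and is a marker of fat cells. The genes Plin2, Adipoq, Cidec, Lep, Retn, Gpihbp1, Lmf1, Angptl8 and Abhd5 also have values printed outside the naming rule. Plin1, like them, was chosen after its values were seen. It held 3057, 561, 2992, 1138 and 666 scaled reads in Damaraland liver replicates 1 to 5, against at most 9.67 in any other liver. Of the other fat cell markers, Adipoq and Cidec ran differently over the same livers. Adipoq held 85.8, 29.4, 601, 20.0 and 221 scaled reads, and Cidec 2.23, 1.84, 0.72, 2.10 and 0. Lep was at 0 in 4 of these 5 livers and at 1.05 in replicate 4. Between species, Retn held 18.1 to 63.5 scaled reads in Damaraland livers and at most 4.15 in any other liver. Adipoq held 12.4 to 79.6 in naked mole-rat livers and at most 3.39 in the outgroups. The means of Fabp4, Cfd, Cidec and Lep were not highest in Damaraland liver. Of 9 fat cell markers 8 were measured. Their sum was 24360 to 42280 scaled reads in Damaraland liver and 11010 to 30030 in naked mole-rat. It was 8374 to 22640 in guinea pig and 19200 to 52440 in mouse. Most of each sum came from Pck1, which hepatocytes also express. The part of fat cells in these values was not tested.

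**Figure D3:**
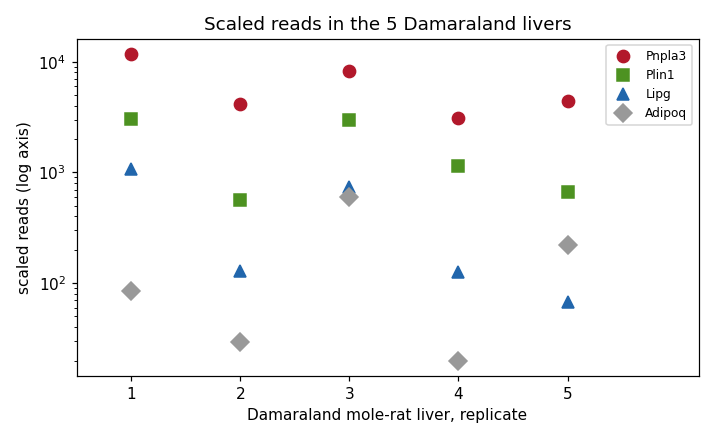
Scaled reads (vertical log axis) of Pnpla3, Plin1, Lipg and Adipoq in the 5 Damaraland mole-rat livers (horizontal axis, replicate number, which has no order). Replicates 1 and 3 are highest for Pnpla3, Plin1 and Lipg, while Adipoq is highest in replicates 3 and 5.

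Lipe, the hormone-sensitive lipase, was even across the hearts. Its scaled reads were 287 to 546 in naked mole-rat, 283 to 520 in Damaraland mole-rat, 412 to 803 in guinea pig and 601 to 703 in mouse. None of the 6 differences was called; the largest was Damaraland minus mouse, at -0.61 (SE 0.22; limma adjusted p 0.0191), which missed the size threshold.

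In liver Lipe was highest in mouse, at 281 and 267 scaled reads. Naked mole-rat livers held 60.8 to 79.6, Damaraland livers 75.8 to 107 and guinea pig livers 81.8 to 113. Mouse was 3.74 times naked mole-rat (difference -1.52, SE 0.17; limma adjusted p 7.42e-07), 3.06 times Damaraland mole-rat (-1.32, SE 0.17; adjusted p 2.73e-06) and 2.85 times guinea pig (-1.25, SE 0.18; adjusted p 1.74e-05). Mouse thus stood alone in liver for Lipe as it did for Lpl.

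Mgll, the monoacylglycerol lipase, separated the livers of all 4 species. Mouse livers held 3446 and 3539 scaled reads and guinea pig livers 847, 798 and 968. Naked mole-rat livers held 130, 167, 197 and 89.4, and Damaraland livers 30.1, 25.8, 40.1, 37.9 and 18.1. The order was mouse, guinea pig, naked mole-rat, Damaraland mole-rat, with no overlap between any neighbours in it.

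By mean scaled reads, Mgll in mouse liver was 4.01 times guinea pig, 23.9 times naked mole-rat and 115 times Damaraland mole-rat. Guinea pig was 5.97 times naked mole-rat and 28.7 times Damaraland mole-rat, and naked mole-rat was 4.81 times Damaraland mole-rat. Differences on the deposited scale were -4.31 for naked mole-rat and -5.82 for Damaraland mole-rat against mouse, and -2.35 and -3.86 against guinea pig. These values chose the gene and carry no test.

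In heart Mgll showed no such order. Naked mole-rat hearts held 2731, 3358 and 411 scaled reads, Damaraland hearts 2012, 2377, 1933, 1677 and 4563, guinea pig hearts 938, 994 and 1362, and mouse hearts 2501, 2424 and 2355. Naked replicate 3 was the lowest of all 14 hearts, below the guinea pigs, while the other 2 naked hearts lay above every guinea pig heart.

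No difference for Mgll in heart was called with all libraries. Damaraland minus guinea pig was 1.06 (SE 0.46; limma adjusted p 0.0553) and guinea pig minus mouse -1.11 (SE 0.52; limma adjusted p 0.0745). Without naked replicate 3 their sizes were the same and the adjusted p-values 0.00135 and 0.0024. Adjusted p-values for the first were also under the threshold without naked replicate 1 (0.0476), naked replicate 2 (0.0351) or Damaraland replicate 4 (0.0492), and for the second without naked replicate 2 (0.0492). Naked minus Damaraland was -0.53 (limma adjusted p 0.329) and turned to 0.36 (adjusted p 0.284) without naked replicate 3.

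**Figure D4:**
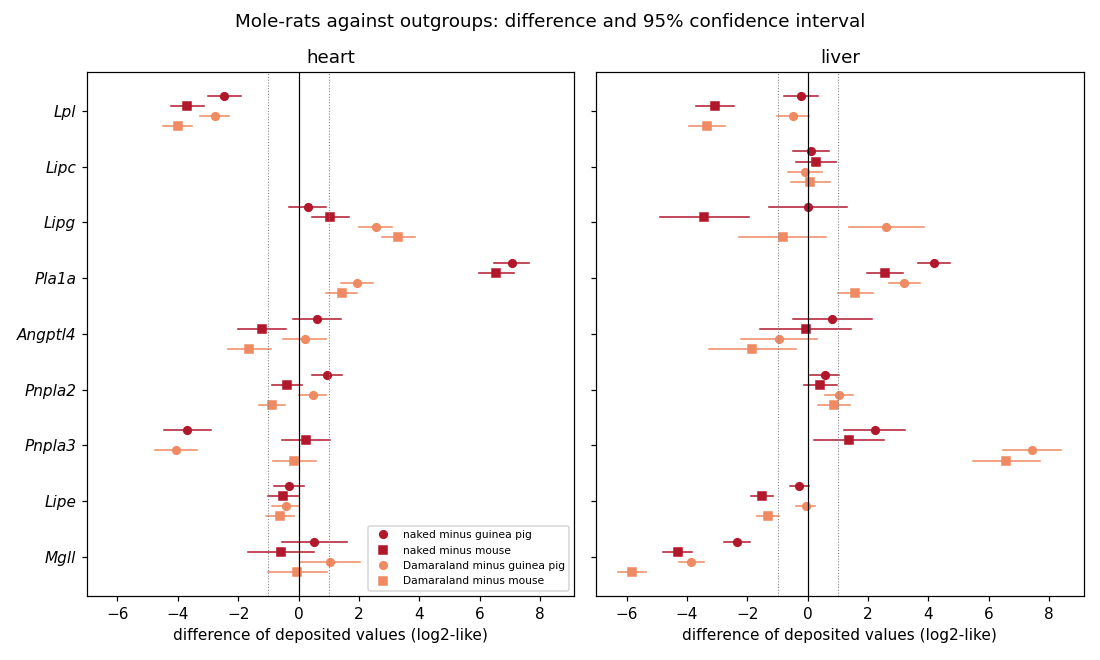
Difference of deposited log2-like values (horizontal axis) between each mole-rat species and each outgroup, with its 95% confidence interval, for heart (left) and liver (right); dotted lines mark a size of 1, and Lipc in heart is not drawn because it was not tested. Lpl lies left of -1 in all 4 heart comparisons, while Pla1a and Pnpla3 lie right of 1 in all 4 liver comparisons; Pla1a in heart and Mgll in liver were picked for these differences.

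Counted over the members, calls came close to the share among all genes in several comparisons. In heart, leaving out Pla1a, 1 of 7 members was called between naked and Damaraland mole-rat, where 29.4% of all genes were called. The counts were 2 of 7 for naked mole-rat against guinea pig (33.0% of all genes), 3 of 7 for naked mole-rat against mouse (38.2%) and 3 of 7 for Damaraland mole-rat against guinea pig (29.7%). They were 3 of 7 for Damaraland mole-rat against mouse (34.9%) and 4 of 7 for guinea pig against mouse (32.1%). The 3 calls of Pnpla3 in these counts are part of how it passed the filter in heart. With a filter on every species mean, which leaves out Pnpla3 and, for its low mouse mean, Lipg, 9 of the 16 calls stood. In the average of the mole-rats against the average of the outgroups, 3 of 7 were called (23.4%): Lpl lower at -3.23, Pnpla3 lower at -1.91 and Lipg higher at 1.80. The Pnpla3 call in this average is likewise part of how the gene passed the filter through guinea pig. Neither mole-rat species was called against mouse for Pnpla3 in heart, so it is not a difference from both outgroups. Naked mole-rat was not called against guinea pig for Lipg in heart (difference 0.30, limma adjusted p 0.375). The Lipg call in the average is thus not shared by both mole-rats against both outgroups.

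In liver, leaving out Mgll, 3 of 8 members were called between the mole-rats, where 34.2% of all genes were called. The counts were 2 of 8 for naked mole-rat against guinea pig (37.8%), 5 of 8 for naked mole-rat against mouse (41.2%) and 4 of 8 for Damaraland mole-rat against guinea pig (36.2%). They were 5 of 8 for Damaraland mole-rat against mouse (39.2%) and 4 of 8 for guinea pig against mouse (37.2%). In the average comparison 3 of 8 were called (28.1%): Pnpla3 higher at 4.40, Pla1a higher at 2.88 and Lpl lower at -1.78. Neither mole-rat species was called against guinea pig for Lpl in liver, so the Lpl call is not a difference from both outgroups. Pla1a and Pnpla3, 2 of the 8, were called higher in all 4 comparisons of a mole-rat with an outgroup, against 6.29% of all genes. Without naked liver replicate 2 or replicate 4 the count was 1, since Pnpla3 then lost its call in naked mole-rat against mouse, and Pnpla3 was not tested in liver under a filter on every species mean, guinea pig being too low. Comparisons that share a species share its libraries, and no test of the list as a whole was made.

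Set side by side as RPM, several members changed their tissue with the species. The 2 tables were scaled separately, and mitochondrial genes took 0.006% to 0.028% of reads in Damaraland hearts against 5.42% to 26.9% in the other hearts, so these are descriptions only. Mean Pla1a RPM was 976 in heart and 248 in liver of naked mole-rat, but 27.5 and 143 in Damaraland mole-rat, 3.77 and 13.3 in guinea pig and 4.67 and 46.3 in mouse. Naked mole-rat was thus the only one of the 4 species with more Pla1a in heart than in liver.

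Mean Pnpla3 RPM was 90.7 in heart and 1.21 in liver of guinea pig, and 0.602 and 476 in Damaraland mole-rat. It was 1.36 and 8.06 in naked mole-rat and 0.712 and 2.06 in mouse. Guinea pig alone had more Pnpla3 in heart than in liver. Mean Mgll RPM was 142 in heart and 9.10 in liver of naked mole-rat, 187 and 2.24 in Damaraland mole-rat, 84.7 and 65.7 in guinea pig and 130 and 263 in mouse, so that the heart means lay close together and the liver means far apart.

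Mean Lipg RPM was 0.226 in heart and 37.8 in liver of mouse, and 38.5 and 32.3 in Damaraland mole-rat. Lpl was higher in heart than in liver in each species, from 435 against 2.79 in Damaraland mole-rat to 4930 against 50.7 in mouse, and Lipc was higher in liver in each, at 201 to 229 in liver against 0.0394 to 2.24 in heart.

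**Figure D5:**
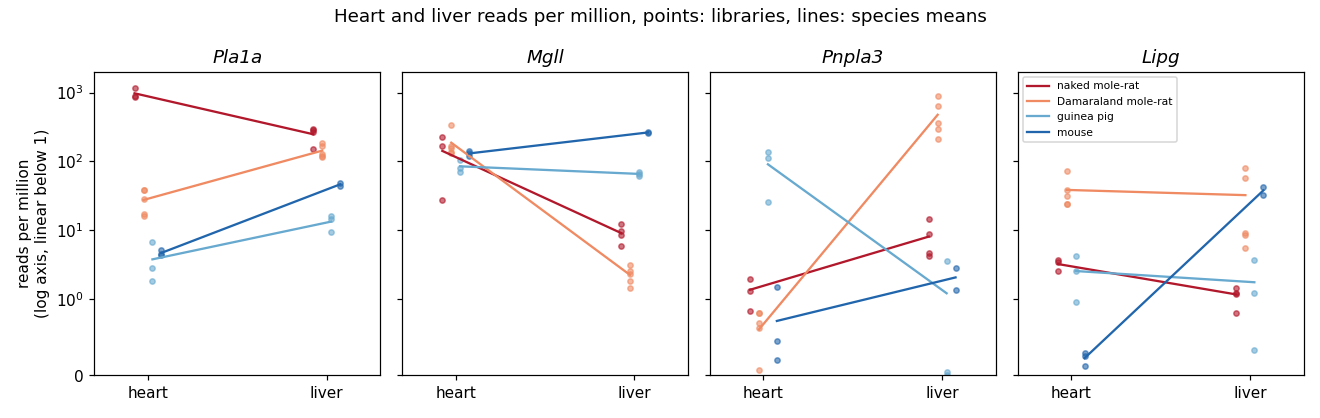
RPM (vertical axis, logarithmic above 1 and linear below it) of Pla1a, Mgll, Pnpla3 and Lipg in heart and liver; points are libraries and lines join the species means. The Pla1a line falls from heart to liver in naked mole-rat only, the Pnpla3 line falls in guinea pig only, and the Mgll lines of the mole-rats fall from heart to liver while that of mouse climbs.

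The genes that make Lpl active, anchor it or block it were read from a list of 15, of which 13 were tested in each tissue. Counts for this and the later lists are to be read against the 23.4% of all genes called in heart and the 28.1% called in liver in the average comparison, and several lie near or below those shares. In heart, the average comparison called 3 higher in mole-rats (Apoc3, Apoc1 and Angptl8) and 2 lower (Gpihbp1 and Vldlr), with a median of 0.71 against -0.01 over all genes. Between the mole-rats 7 of the 13 were higher in naked mole-rat and none lower, where 29.4% of all genes were called in either direction, with 1516 of 10667 higher. Angptl8 is counted in both comparisons, but it passed the filter in heart only through naked mole-rat. Its calls there are part of how it passed. Gpihbp1, which carries Lpl to the capillary wall, held 238 to 485 scaled reads in naked mole-rat, 35.3 to 85.9 in Damaraland mole-rat, 347 to 546 in guinea pig and 426 to 460 in mouse hearts. Damaraland mole-rat thus lay below the other 3 species without overlap.

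Lmf1, needed for Lpl to fold, held 1044 to 1622 scaled reads in naked mole-rat hearts against 188 to 447 in the other 3 species. Angptl8, a secreted protein that takes part in blocking Lpl and is made mainly by liver and fat, held 342 to 370 in naked mole-rat hearts, 3.87 to 23.7 in Damaraland mole-rat, 0 to 3.07 in guinea pig and 0 to 0.78 in mouse. Apoc1, Apoc3 and Angptl8 are liver genes, and all 6 measured hepatocyte markers were also called higher in naked than in Damaraland mole-rat heart, with a median of 2.44; the part of liver-type RNA in these calls was not tested.

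In liver the same list had 5 higher (among them Hspg2, Pcsk6, Apoc1 and Angptl8) and 2 lower (Pcsk5 and Apoa5) in the average comparison, with a median of 0.53 against 0.02 over all genes. Pcsk5, which encodes a proprotein convertase, was lower in all 4 comparisons, at a mean of 9.44 and 12.7 scaled reads in the mole-rats (naked first), with 148 in guinea pig and 272 in mouse (difference -2.57, SE 0.13; limma adjusted p 2.43e-11). Angptl8 was highest in Damaraland liver, at 2976 to 5665 scaled reads, against 763 to 1376 in naked mole-rat and at most 677 in the outgroups.

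Of the 13 genes of the lipid droplet coat and its assembly, 9 were tested in each tissue. In both tissues Fitm1, Fitm2 and Plin2 were called lower in mole-rats in the average comparison, and 1 gene higher, Hsd17b13 in heart and Plin1 in liver. Medians were -0.38 in heart and 0.09 in liver. In heart, Plin2 held 696 to 1077 scaled reads in naked mole-rat, which overlapped mouse at 980 to 1153. It held 120 to 499 in Damaraland mole-rat, and was called higher in naked than in Damaraland mole-rat heart. Plin1 passed the filter on low values in liver only through Damaraland mole-rat, so its call is part of how it passed. Naked mole-rat livers held at most 9.67 scaled reads of Plin1, so the call does not describe that species. Fitm1, which helps package fat into droplets, was lower in all 4 liver comparisons, at means of 62.5 and 17.0 scaled reads in naked and Damaraland mole-rat against 480 and 280 in guinea pig and mouse (difference -2.60, SE 0.21; limma adjusted p 7.01e-09). Plin2, the common coat protein of liver droplets, held 9246 and 10780 scaled reads in the mouse livers and 199 to 622 in the other 12, and the guinea pigs, at 199 to 331, lay at or below most mole-rats.

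Among 11 partners of intracellular lipolysis, 9 were tested in each tissue. In heart Abhd6, another monoacylglycerol lipase, was called higher and Aqp7 and Ddhd1 lower, with a median of -0.38; in liver Aqp7 was higher and Ddhd1 lower, with a median of -0.01. Abhd6 was higher in all 4 heart comparisons, at means of 977 and 779 scaled reads in the mole-rats (naked first), with 37.0 in guinea pig and 123 in mouse (difference 2.76, SE 0.16; limma adjusted p 3.03e-10). Ddhd1, an intracellular phospholipase A1, was lower in all 4, at 76.3 and 38.1 against 310 and 246 (-1.52, SE 0.12; limma adjusted p 8.03e-09). Abhd5, the activator of Pnpla2, held means of 478, 370, 547 and 1038 scaled reads in naked mole-rat, Damaraland mole-rat, guinea pig and mouse heart, and was not called in either tissue in the average comparison.

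Genes of glycerolipid synthesis, the reverse path, numbered 16, with 13 tested in heart and 14 in liver. In heart Gpat3 was called higher and Gpam, Agpat2 and Dgat2 lower, with a median of -0.28. Gpam, a mitochondrial enzyme of the first step, was lower in all 4 heart comparisons, at means of 641 and 217 scaled reads in the mole-rats (naked first), with 2666 in guinea pig and 7414 in mouse (difference -3.30, SE 0.11; limma adjusted p 8.28e-13). In liver 5 were higher (Mogat1, Lpin1, Dgat1, Gpat3 and Agpat1) and Agpat2 lower, with a median of 0.12. The call of Mogat1 is part of how it passed the filter, as given below.

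Mogat1 re-esterifies the monoacylglycerol that Mgll would cleave. Its liver means were 891 and 748 scaled reads in naked and Damaraland mole-rat and 7.26 in mouse, with 0 to 1 reads per guinea pig library. The difference was 4.95 (SE 0.15). Mogat1 passed the filter on low values only through the mole-rats, the outgroup means lying below its bound, so this difference is a description with no p-value. Gpat3 had 541 and 2475 against 3.57 in guinea pig and 93.2 in mouse (4.28, SE 0.12; limma adjusted p 1.24e-14). Agpat2, an enzyme of the second step, had 647 and 74.2 against 1701 and 2556 (-2.98, SE 0.17; limma adjusted p 1.62e-10). Gpat3 and Agpat2 were called with the same sign in all 4 liver comparisons. Mogat1 was too, but its calls are part of how it passed the filter.

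The remaining lists had 1 to 3 calls each. Of 15 patatin-like and neutral lipase relatives, 4 were tested in heart and 5 in liver, and 1 was higher in each (Pnpla6 in heart, Dagla in liver), with medians of 0.18 and 0.76. Of 11 genes of endocannabinoid and lysophosphatidylserine handling, 5 were tested in heart and 6 in liver, and Faah, which degrades anandamide, was higher in both, with medians of 0.08 and -0.09. Of 18 PPAR receptors and fatty acid response genes 15 were tested in each tissue. In heart Pparg, Pdk4 and Slc27a1 were lower, with a median of -0.31, and in liver Pdk4 and Fabp3 were higher, with a median of 0.31.

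Genes with the pattern most like Pla1a over the 14 hearts were found as those with the smallest root mean square difference between centred deposited values, among 10667 genes. They were Myh8, a developmental myosin (0.70), Cplx1, a complexin of synaptic vesicles (0.73), and Glp2r, a gut hormone receptor (0.83). Each was high in naked mole-rat heart, at means of 3255, 4782 and 3104 scaled reads, and at most 207 in any other species. Those most like Mgll over the 14 livers, among 10887 genes, were Sdc4, a cell surface proteoglycan (0.49), Tspan12, a tetraspanin (0.51), and Trp53inp2 (0.54). Their means ran in the order of Mgll, lowest in Damaraland mole-rat, at 238, 198 and 38.8 scaled reads, and highest in mouse, at 10640, 5024 and 4041. The neighbours of both genes were picked by these same values, so the shared patterns follow from the choice and are a description only.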

How the data were processed

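The deposited tables, 1 per tissue, hold variance-stabilised log2-like values for 13928 genes under mouse Ensembl identifiers, of which 13921 matched a symbol. The submitters' processing notes name cutadapt, Salmon 013.1, DESeq2 and the mouse build GRCm38; how reads of each species were assigned to mouse genes is not given in the sources used here. Of the columns, 26 belong to other series and were not used. The transform was inverted to reads and scaled reads, and 100% of values came out whole within 0.01 read. limma 3.58.1 in R 4.3.3 was fitted per tissue to the deposited log2-like values with 4 species coefficients and a mean-variance trend. Genes were tested where their mean was at least 1 above the value of 0 reads (10667 in heart, 10887 in liver), and p-values were adjusted over all of them. The fit was tested on simulated data. The members and lists were chosen with earlier results of these data known. All 9 members are named; of the pathway lists, those called with the same sign in all 4 comparisons of a mole-rat with an outgroup are named, and 3 neighbours in pattern for Pla1a and Mgll. All 9 members have 1 protein-coding entry in the Damaraland mole-rat RefSeq annotation DMR_v1.0_HiC. Alternatives covered filters, thresholds, scaling, weights, voom and leaving out libraries.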

Additional observations from a re-analysis of the deposited data

Results flagged for a closer look

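Dixon's test for a library far from its group was run on 27 groups of 4 or 5 libraries, and chance alone flags about 1 in 20. It picked out 2 values. Pnpla3 in Damaraland mole-rat heart replicate 4 had a deposited value of 5.58, against 6.03 to 6.10 in the other 4 hearts. Pla1a in naked mole-rat liver replicate 3 had a value of 11.28, against 12.09 to 12.16 in the other 3 livers.

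In some comparisons every library of a species pair differed one way in heart and the opposite way in liver. The share of all genes that do so is not given here, so their number is not read as a result about these genes. Lipg in naked mole-rat minus mouse was 1.05 in heart and -3.43 in liver, and in guinea pig minus mouse 0.75 and -3.43. Pnpla2 in Damaraland mole-rat minus mouse was -0.88 in heart and 0.88 in liver. Pnpla3 was 0.38 in heart and -5.21 in liver for naked minus Damaraland mole-rat, -3.68 and 2.22 for naked mole-rat minus guinea pig, and -4.06 and 7.43 for Damaraland mole-rat minus guinea pig. Mgll in Damaraland mole-rat minus guinea pig was 1.06 in heart and -3.86 in liver. Pnpla3 in heart passed the filter only through guinea pig, and Mgll in liver was picked for its difference. The difference between the tissues was not tested, since the tables were normalised separately.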

How the results depend on the processing

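The members' 16 calls in heart became 10 under a test against a difference of 1, 9 when every species mean had to lie 1 above the value of 0 reads and 6 when only genes at or above the table median were tested. The 23 in liver became 15, 18 and 13 under the same settings, the 5 lost under the second being those of Pnpla3. The pathway lists' 21 calls in heart became 53 with no size threshold, 7 under the test against 1 and 13 above the table median, and their 23 in liver 50 with no size threshold. Leaving out 1 library at a time gave 15 to 19 and 22 to 24 calls of members, and 20 to 23 and 22 to 26 of list genes, in heart and liver. Of 399 pairs of a called heart difference and an alternative 388 kept the call, and of 537 in liver 516; none turned. Of the pairs of an uncalled difference and an alternative, 663 in heart and 591 in liver, 24 and 15 gained a call and 12 and 20 turned in sign. Lipg in guinea pig minus mouse heart was 2.72 by voom on the recovered reads, where it was called. Beyond the losses already given, Lipg in naked mole-rat minus mouse heart was 0.92 after quantile normalisation and also just under 1 with array weights, and Angptl4 there -0.80 with array weights. Mgll in naked minus Damaraland heart turned to 0.29 with array weights and ranged from -1.05 to 0.36 as naked replicates were left out, the last without replicate 3. Mouse liver libraries were not left out, since 1 would remain.

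The replicate block left 16 and 23 member calls in heart and liver, and gave 21 and 24 list calls against 21 and 23. Same-numbered libraries come from different species, and their deviations correlated between -0.26 and 0.30 (heart) and between -0.23 and 0.15 (liver), so the numbers pair nothing.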
